A study of Mus musculus with 9 samples.

Results

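The ZBTB genes encode transcription factors that join an N-terminal BTB domain to zinc fingers at the other end. They were taken as every gene symbol made of Zbtb, a number and at most 1 letter, leaving out Zbtb46, which gave 39 of the 55278 gene symbols that could be read. RNA-seq read counts were available for 9 libraries of dendritic cells sorted from the thymus of C57BL/6 mice 8 weeks of age, 3 libraries for each of 3 populations. Each is named for a surface protein: the chemokine receptor XCR1, which marks cDC1 (conventional dendritic cells of type 1), the receptor SIRPa, which marks cDC2 (type 2), and the lectin CD301b, encoded by Mgl2. Beyond the strain, all groups share an unstated genotype and no treatment is named. The sources used here do not give the gates or any pooling of mice. The labels call the cells both thymocytes and thymic dendritic cells. The design text speaks of 3 mice, and CD301b libraries are numbered 1, 3 and 4 where the others are numbered 1 to 3. Neither says which mouse gave which library or whether populations share mice, so the p-values rest on a spread between libraries that may be technical.

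In ZBTB proteins the zinc fingers read the DNA sequence, and the BTB domain pairs proteins with each other and recruits corepressors such as NCOR and BCOR, which bring histone deacetylases. Many members are known as repressors, and several set lineage choices in blood cells: ThPOK (Zbtb7b) directs CD4 T cells, PLZF (Zbtb16) directs innate-like T cells, and LRF (Zbtb7a) acts in B cell and red cell development. Zbtb46, the member left out, is a marker of conventional dendritic cells.

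The libraries held 20246092 to 25438864 counts. The 8 cDC1 markers summed to 4641 to 5631 CPM (counts scaled to library size, with TMM factors) in XCR1 libraries, against 482 to 730.2 in the other 6, and the 8 cDC2 markers to 1694 to 2519 CPM in CD301b and SIRPa libraries against 53.6 to 75.2 in XCR1. These lists include Xcr1, Sirpa and Mgl2, the genes of the proteins the populations are named for, so the sort itself sets part of the sums. Sirpa averaged 646 and 774 CPM in CD301b and SIRPa, and Mgl2 624 and 23.2 CPM. All 6 pan-dendritic markers were present in every library, among them Zbtb46 at 85.3 to 203 CPM. Markers of other cells were present as well. The 15 thymocyte and T cell markers summed to 442 to 792 CPM in CD301b and 667 to 892 in SIRPa. In XCR1 they summed to 223, 186 and 801 CPM in replicates 1 to 3. Cd4 and Tcf7 were the highest of them in every CD301b and SIRPa library. Cd4 averaged 215, 305 and 24.0 CPM and Tcf7 150, 250 and 150 CPM in CD301b, SIRPa and XCR1. Of the 14 thymocyte markers tested, Cd4 was higher in CD301b and in SIRPa than in XCR1, and 13 passed in neither comparison. The 10 macrophage markers summed to 1847 to 2211, 2647 to 3076 and 189 to 207 CPM in CD301b, SIRPa and XCR1. In sorted bulk samples, fewer cells of a type and less RNA per cell cannot be told apart.

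Promoter windows are shown for 3 of the 4 members that passed the test against XCR1 in both of its comparisons: Zbtb32 and Zbtb18, lower in XCR1, and Zbtb8a, higher there. Each is the longest run that lies in no annotated exon within the 250 bases before the gene's outermost RefSeq start. The build is GRCm38.p6, and the bases are written on the gene's strand. The Zbtb32 and Zbtb18 windows reach that start, while the Zbtb8a window ends 88 bases before it. Capitals mark each CCAAT, the core of the element bound by NF-Y, searched on both strands with no overlap to another marked motif.
Zbtb32, chr7:30598910-30599159, minus strand: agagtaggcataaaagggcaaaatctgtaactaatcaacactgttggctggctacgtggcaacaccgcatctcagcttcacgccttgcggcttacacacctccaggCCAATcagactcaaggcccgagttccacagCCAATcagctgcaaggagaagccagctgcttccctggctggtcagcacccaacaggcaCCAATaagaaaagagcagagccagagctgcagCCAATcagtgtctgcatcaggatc
Zbtb18, chr1:177442101-177442350, plus strand: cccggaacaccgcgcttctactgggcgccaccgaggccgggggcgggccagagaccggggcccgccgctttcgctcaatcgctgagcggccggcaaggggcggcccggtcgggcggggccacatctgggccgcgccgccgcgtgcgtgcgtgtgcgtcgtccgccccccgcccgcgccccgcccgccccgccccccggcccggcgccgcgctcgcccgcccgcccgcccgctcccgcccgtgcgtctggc
Zbtb8a, chr4:129378117-129378278, minus strand: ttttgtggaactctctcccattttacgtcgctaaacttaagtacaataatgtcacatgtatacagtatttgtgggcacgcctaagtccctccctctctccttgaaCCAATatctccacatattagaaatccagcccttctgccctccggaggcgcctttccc
The Zbtb32 window of 250 bases held 4 CCAAT matches, the Zbtb18 window none and the Zbtb8a window of 162 bases 1. Of 32851 RefSeq promoter windows, 33.9% held CCAAT in 250 bases and 0.840% held 4 or more, and 21.8% held it in the first 162 bases. Of the 47 windows of ZBTB members, some from the same gene, 29.8% held CCAAT in 250 bases and 3 (6.38%) held 4 or more. The E-box CAGCTG occurred at 2 places in the Zbtb32 window and in neither of the others, and 13.0% of windows of 250 bases held it. Neither TGANTCA, the AP-1 site (6.75% of windows of 250 bases), nor the ETS-IRF composite element EICE (2.30%) occurred in any of the 3, which says nothing about those factors. In the 162 bases used for Zbtb8a, CAGCTG occurred in 8.17%, TGANTCA in 4.44% and EICE in 1.44% of windows. The windows also differed in base composition, with 53.6% G and C for Zbtb32, 84.0% for Zbtb18 and 46.3% for Zbtb8a. CCAAT was chosen for marking after the sequences were seen, and a match is a description and not a known site.

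Libraries of all 3 populations held counts for nearly the whole family. Of the 39 members, 36 had enough counts to be tested, beside 15417 of all 55278 gene symbols, and 3 did not. A gene could be tested on its counts in some libraries alone, as Zbtb32 was with 0 counts in every XCR1 library. Zbtb9 had 0 counts in every library, Zbtb7c had 23 counts, all in CD301b replicate 1, and Zbtb8b had 8, all in XCR1 replicate 2. Of Zbtb9's 3482 exonic bases, 2938 are shared with Ggnbp1 on the same strand, so its count of 0 is uncertain. Summed over the family, levels were 1014 ± 21.7 CPM (SD, n = 3 libraries, here and below) in CD301b, 1037 ± 21.2 in SIRPa and 996 ± 15.7 in XCR1. These sums lay between 985 and 1051 CPM in all 9 libraries. Of the 36 tested members, 24 had population means within 1.5-fold of each other, 7 within 1.5- to 2-fold, and 5 differed by 2-fold or more between the highest and the lowest population. The same split was not made over all genes. Median absolute log2 fold changes of the members were 0.21, 0.32 and 0.27, beside 0.30, 0.48 and 0.50 over all genes tested. They are given for CD301b minus SIRPa, CD301b minus XCR1 and SIRPa minus XCR1.

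Per length, Zbtb7a stood above all others, at 21.0 CPM per kb of exon over the 9 libraries, against a median of 3.60 for the 36 tested members. Zbtb18 followed at 12.0, Zbtb22 at 8.70, Zbtb33 at 8.40 and Zbtb7b at 7.76 CPM per kb. The gap between Zbtb7a and Zbtb18 exceeded their spread, with lowest and highest libraries at 17.7 and 24.0 CPM per kb for Zbtb7a and at 7.69 and 15.5 for Zbtb18. Those of Zbtb22 (6.39 to 10.3), Zbtb33 (6.33 to 10.3) and Zbtb7b (6.09 to 9.79) overlapped each other. At the low end stood Zbtb32 with 0.594, Zbtb49 with 0.681 and Zbtb16 with 0.689 CPM per kb. Exonic lengths are those of GENCODE vM21 and join all its transcripts, which lowers the per-kb level of genes with many transcripts such as Zbtb20 (30730 exonic bases).

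**Figure D1:**
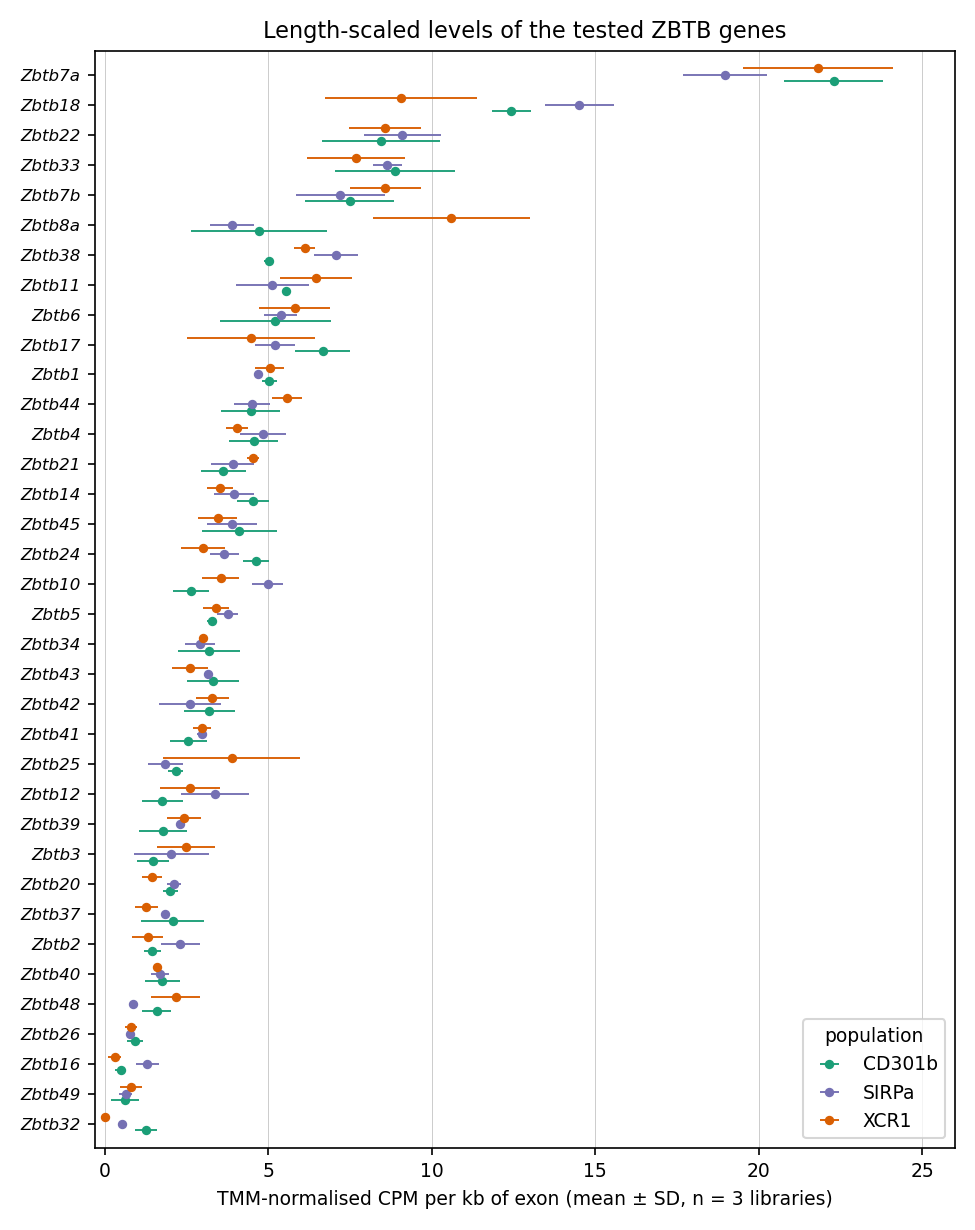
Each row is 1 of the 36 tested ZBTB genes, with points for the mean TMM-normalised CPM per kb of exon in each population and bars for the SD over 3 libraries. Zbtb7a stands apart at the top, the points of most genes lie close together, and Zbtb8a (higher in XCR1) and Zbtb18 (lower in XCR1) show separated populations.

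The comparisons with XCR1 ask how the cDC1-type population differs from each of the 2 others. They share the XCR1 libraries, so they are not independent. A gene passed the test at an adjusted p under 0.05 (edgeR's quasi-likelihood test, Benjamini-Hochberg over all 15417 genes tested). Between CD301b and XCR1, 3 of the 36 tested members were higher in CD301b (Zbtb18, Zbtb20 and Zbtb32), where 13.5% of all genes were, and 1 was lower (Zbtb8a), where 9.12% were. That is 11.1% of members against 22.6% of all genes. Between SIRPa and XCR1, 4 were higher in SIRPa (Zbtb16, Zbtb18, Zbtb20 and Zbtb32), where 13.9% of all genes were, and 2 were lower (Zbtb8a and Zbtb48), where 10.7% were. That is 16.7% of members against 24.7% of all genes. The groups did not overlap in 9 of the 36 members between CD301b and XCR1 (34.4% of all genes) and in 11 between SIRPa and XCR1 (40.2% of all genes). The median log2 fold change of the members was -0.01 for CD301b minus XCR1 and 0.08 for SIRPa minus XCR1, beside 0.05 and 0.06 over all genes.

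**Figure D2:**
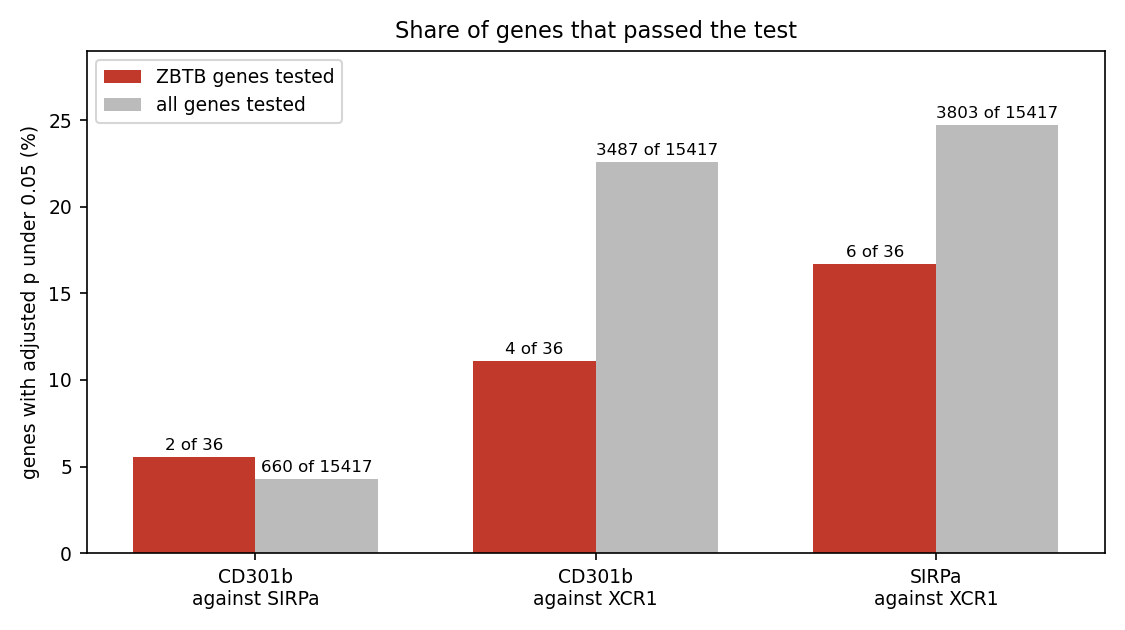
Bars give the percentage of genes with an adjusted p under 0.05 in each comparison, in red for the 36 tested ZBTB genes and in grey for all 15417 genes tested, with counts above them. The red bar stands at 5.56% beside 4.28% between CD301b and SIRPa, at 11.1% beside 22.6% between CD301b and XCR1, and at 16.7% beside 24.7% between SIRPa and XCR1.

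Zbtb32 (chromosome 7, 30589681 to 30598909, minus strand, on build GRCm38 here and below), a repressor also known as PLZP or ROG that restrains activated T cells and memory B cells, had 0 counts in all 3 XCR1 libraries. It stood at 2.03, 3.44 and 3.43 CPM in CD301b replicates 1, 3 and 4 (51, 82 and 70 counts) and at 1.47, 1.05 and 1.18 in SIRPa replicates 1 to 3 (31, 24 and 25 counts). No library of one population overlapped another. Taking 3 counts over the XCR1 group as the floor, the mean of CD301b was 61.1-fold and that of SIRPa 25.4-fold the floor. The spread between libraries does not enter these ratios, so they are not lower bounds. The log2 fold change against XCR1 was 9.02 for CD301b (interval 5.51 to 12.5, adjusted p = 0.000470, edgeR). For SIRPa it was 7.76 (interval 4.31 to 11.2, adjusted p = 0.00148). CD301b and SIRPa, at 2.96 ± 0.808 and 1.23 ± 0.212 CPM, did not pass against each other (log2 fold change 1.26 ± 1.04, interval -0.92 to 3.45, adjusted p = 0.704). Both calls against XCR1 held in each of the 9 fits that left out 1 library and in the 6 fits with other settings. The level was low, at most 3.44 CPM in any library.

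Lymphocytes are the cells in which Zbtb32 is best known, so their markers stand beside it. The 10 B cell markers summed to 22.9 to 27.2 CPM in CD301b, 46.0 to 79.1 in SIRPa and 5.18 to 16.6 in XCR1, with 5 to 8, 1 and 2 to 8 of the 10 at 0 counts. In CD301b, where Zbtb32 was highest, Ms4a1 and Pax5 had 0 counts in all 3 libraries, while Cd79b stood at 4.78, 8.34 and 7.68 CPM and Cd22 at 19.9, 14.5 and 15.6. In XCR1, Cd79b stood at 0, 0.238 and 2.46 CPM and Cd22 at 7.98, 0.238 and 1.40, lower in every library than in CD301b and SIRPa, as Zbtb32 was. Ms4a1 and Pax5 went the other way between CD301b and XCR1, at 2.44, 4.32 and 7.62 and at 0, 0 and 3.81 CPM in XCR1 replicates. Of the 7 B cell markers tested, 1 was higher (Cd79a) and 2 were lower (Ms4a1 and Pax5) in CD301b than in XCR1. Cd79a had 59, 0 and 0 counts in CD301b replicates and Pax5 0, 0 and 79 in XCR1 replicates, so each call rested on 1 library. DESeq2 gave 0 higher and 1 lower. Between SIRPa and XCR1, 4 were higher and 0 lower in SIRPa. Over all genes, 13.5% were higher and 9.12% lower in CD301b than in XCR1, and 13.9% and 10.7% in SIRPa. The 9 markers of NK, NKT and innate lymphoid cells summed to 142 to 167 CPM in CD301b, 123 to 153 in SIRPa and 13.1 to 26.7 in XCR1. Most of the sum in CD301b and SIRPa was Il7r, the highest of the 9 markers, which averaged 112, 105 and 10.5 CPM in CD301b, SIRPa and XCR1. Of these markers, 3 were higher in CD301b than in XCR1 (Il7r, Klrd1 and Gata3) and 2 were higher in SIRPa (Il7r and Klrd1). Klrd1 averaged 26.3 ± 7.17, 16.0 ± 3.22 and 1.94 ± 1.66 CPM in the same order of populations, and Ncr1 had 0 counts in all CD301b and XCR1 libraries. Klrb1c, Gzmb and Nkg7 averaged 0.318, 0.494 and 0.489 CPM in CD301b and 0.431, 0.677 and 0.981 in XCR1. The thymocyte sums given above overlapped between populations. Other lists were also lowest in XCR1. In CD301b, SIRPa and XCR1, the 8 plasmacytoid dendritic cell markers summed to 539 to 675, 396 to 431 and 119 to 145 CPM. The 6 monocyte markers summed to 637 to 752, 584 to 617 and 73.4 to 112 CPM. The 11 of thymic epithelium and stroma summed to 202 to 242, 90.7 to 106 and 44.6 to 63.7 CPM. The 6 granulocyte markers were not so ordered, at 0 to 3.31, 7.38 to 28.9 and 0 to 24.7 CPM. The part of RNA from any of these cells in the Zbtb32 level was not tested.

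Zbtb18 (chromosome 1, 177442351 to 177450764, plus strand), a repressor also called RP58 and known from cortical development, was the second highest member per length and was lower in XCR1. Its level was 72.4, 76.7 and 79.8 CPM in CD301b replicates, 95.4, 89.4 and 82.5 in those of SIRPa and 47.4, 72.2 and 47.2 in those of XCR1, in the order of their numbers. XCR1 replicate 2 lay just under the lowest CD301b library, while the other 2 XCR1 libraries lay well below. The difference from SIRPa was 0.68 ± 0.16 (SE) on the log2 scale (adjusted p = 0.00237, edgeR), and it held in all 9 fits that left out 1 library. The difference of CD301b from XCR1 was 0.46 ± 0.16 (0.0387) and held in 1 of those 9, being lost without any single library except XCR1 replicate 2 (adjusted p = 0.0584 to 0.177). It was also lost in the fit on only the 6 libraries compared (0.0788). CD301b minus SIRPa was -0.22 ± 0.15 (0.610).

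Zbtb20 (chromosome 16, 42875881 to 43642602, plus strand), a relative of BCL6 that acts in plasma cells and liver, moved in the same direction as Zbtb18. It stood at 63.5, 53.5 and 67.3 CPM in CD301b replicates, 71.4, 64.3 and 58.8 in those of SIRPa and 51.7, 33.5 and 47.8 in those of XCR1. All XCR1 libraries lay below all others, and CD301b and SIRPa overlapped. SIRPa exceeded XCR1 by 0.55 ± 0.17 on the log2 scale (adjusted p = 0.0192, edgeR), a call lost without SIRPa replicate 1 or 2 or XCR1 replicate 2 (0.0562 to 0.120). CD301b exceeded XCR1 by 0.47 ± 0.17 (0.0480), just inside the threshold. That call was lost without CD301b replicate 1 or 4, any single SIRPa replicate, or XCR1 replicate 2 or 3 (0.0537 to 0.239), with RLE size factors (0.0567), with DESeq2 (0.0582) and in the fit on only the 6 libraries compared (0.0940). The macrophage markers summed above were also lower in XCR1, and their part in these differences was not tested.

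Zbtb8a (chromosome 4, 129353628 to 129378116, minus strand) was the member that went the other way most clearly. XCR1 replicates stood at 30.1, 24.7 and 19.0 CPM, CD301b replicates at 14.9, 12.3 and 5.53 and SIRPa replicates at 7.62, 8.65 and 10.7. Every XCR1 library was above all 6 others, and CD301b replicate 4 was the lowest of all. The log2 fold change was -1.45 ± 0.32 for SIRPa minus XCR1 (adjusted p = 0.00189, edgeR), held in all 9 fits that left out 1 library, and -1.17 ± 0.32 for CD301b minus XCR1 (0.0106), lost without XCR1 replicate 1 (0.0639). Between CD301b and SIRPa it was 0.28 ± 0.32 (interval -0.39 to 0.95, adjusted p = 0.825). Of its 2321 exonic bases, 264 lie opposite Zbtb8os, and whether counting used the strand is not stated in the sources used here.

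Zbtb48 (chromosome 4, 152019774 to 152027671, minus strand), which encodes the telomere-binding protein TZAP, was lower in SIRPa than in XCR1. SIRPa replicates lay close together at 2.84, 2.59 and 2.69 CPM, XCR1 replicates at 5.04, 9.60 and 6.12 and CD301b replicates at 4.54, 6.67 and 3.91. The SIRPa libraries were below all others, and CD301b and XCR1 overlapped. The log2 fold change of SIRPa minus XCR1 was -1.35 ± 0.49 (adjusted p = 0.0474, edgeR), which was lost without CD301b replicate 3, any single SIRPa replicate, or XCR1 replicate 2 or 3 (0.0594 to 0.224), with limma-voom (0.0681) and with no filter on low counts (0.0963).

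Zbtb16 (chromosome 9, 48654297 to 48836222, minus strand), which encodes PLZF, the factor of NKT and other innate-like T cells, was highest in SIRPa. SIRPa replicates stood at 7.24, 8.48 and 4.81 CPM (153, 193 and 102 counts), CD301b replicates at 3.43, 2.6 and 1.57 and XCR1 replicates at 0.748, 1.14 and 2.75. SIRPa was above all 6 other libraries, and CD301b and XCR1 overlapped. SIRPa exceeded XCR1 by 2.14 ± 0.65 on the log2 scale (adjusted p = 0.0181, edgeR), lost without SIRPa replicate 1 or 2 or XCR1 replicate 1 or 2 (0.0586 to 0.0965). CD301b minus SIRPa was -1.43 ± 0.63 without passing (0.287), and CD301b minus XCR1 was 0.71 ± 0.63 (0.499). Among the XCR1 libraries, replicate 3 was highest for Zbtb16 and for the thymocyte markers. The other populations went the opposite way. CD301b replicate 4 and SIRPa replicate 3 had the highest thymocyte sums of their populations (792 and 892 CPM) and the lowest Zbtb16. Of the NK, NKT and innate lymphoid markers, Il7r (105 ± 11.2 against 10.5 ± 2.50 CPM) and Klrd1 were higher in SIRPa than in XCR1, and Gata3 averaged 9.11 ± 2.31 against 4.33 ± 1.89 CPM without passing. Ncr1 and Klrb1c were low, at 3.88, 0.264 and 0.0943 and at 0.994, 0.0439 and 0 CPM in SIRPa replicates. The part of T cell and innate lymphocyte RNA in the Zbtb16 level was not tested.

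**Figure D3:**
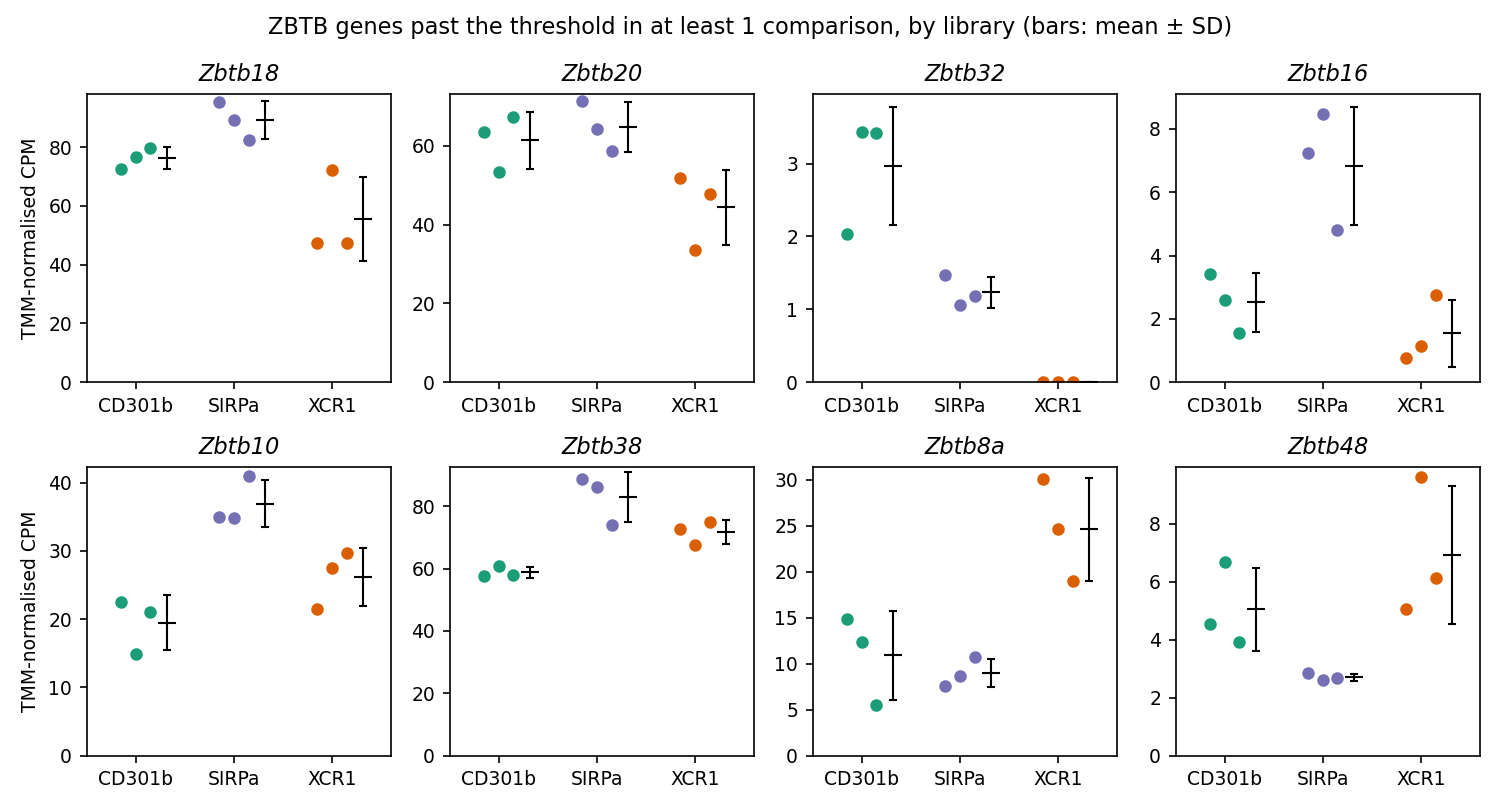
Each panel shows 1 of the 8 ZBTB genes that passed the test in at least 1 comparison, with a point for each library in TMM-normalised CPM on an axis from 0, and a black bar for the mean ± SD of 3 libraries. XCR1 libraries are lowest for Zbtb18, Zbtb20 and Zbtb32 and highest for Zbtb8a, and SIRPa libraries are highest for Zbtb10, Zbtb16 and, but for 1 XCR1 library, Zbtb38.

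CD301b and SIRPa, both rich in cDC2 markers, were compared next. Of the 36 tested members, 0 were higher in CD301b, where 2.20% of all genes were, and 2 were lower, Zbtb10 and Zbtb38, where 2.08% were. That is 5.56% of members against 4.28% of all genes, close to the background. By unadjusted p under 0.05, edgeR gave 0 higher and 3 lower of the 36, beside 2220 of all 15417 genes in either direction, while DESeq2 and limma-voom each called 0 higher and 2 lower. The groups did not overlap in 10 of the 36 members, against 22.1% of all genes. The median log2 fold change was 0.05 over the members and 0.01 over all genes.

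Zbtb10 (chromosome 3, 9250602 to 9285333, plus strand), known as a repressor of Sp transcription factors, stood at 22.6, 14.9 and 21.0 CPM in CD301b replicates 1, 3 and 4 and at 35.0, 34.8 and 41.0 in SIRPa replicates 1 to 3. All SIRPa libraries lay above all others. CD301b minus SIRPa was -0.92 ± 0.21 on the log2 scale (interval -1.36 to -0.49, adjusted p = 0.0115, edgeR). The call was lost without CD301b replicate 3 (0.0745) or SIRPa replicate 3 (0.0731). XCR1 replicates lay at 21.5, 27.5 and 29.7 CPM, and neither SIRPa (0.49 ± 0.21, 0.0927) nor CD301b (-0.43 ± 0.21, 0.164) passed against them.

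Zbtb38 (chromosome 9, 96682770 to 96752831, minus strand), which binds methylated CpG sites, stood at 57.7, 60.8 and 58.0 CPM in CD301b and 88.8, 86.1 and 73.9 in SIRPa replicates. The CD301b libraries lay within a narrow range, below all others. CD301b minus SIRPa was -0.50 ± 0.13 (interval -0.76 to -0.23, adjusted p = 0.0298, edgeR). This call was lost without any single CD301b replicate or SIRPa replicate 1 or 2 (0.0593 to 0.167). XCR1 replicates, at 72.8, 67.6 and 74.9 CPM, passed against neither CD301b (0.127) nor SIRPa (0.283).

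Of the members with known roles in lymphocytes, several did not pass in any comparison. Zbtb7a (chromosome 10, 81135220 to 81152995, plus strand) stood at 149, 163 and 143 CPM in CD301b replicates, 120.3, 129.6 and 138 in those of SIRPa and 163, 150.4 and 132 in those of XCR1. Its log2 fold changes of 0.23 ± 0.11 for CD301b minus SIRPa, 0.03 ± 0.11 for CD301b minus XCR1 and -0.20 ± 0.11 for SIRPa minus XCR1 had adjusted p from 0.234 to 0.90. The intervals lay between -0.44 and 0.47, so a 1.5-fold difference was outside each of them. Its direction in CD301b minus XCR1 turned without CD301b replicate 3 or XCR1 replicate 3.

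Zbtb7b (chromosome 3, 89377644 to 89394776, minus strand) stood at 35.0, 50.1 and 40.5 CPM in CD301b replicates, 37.9, 34.0 and 48.8 in those of SIRPa and 54.7, 46.3 and 42.9 in those of XCR1, with overlap between all populations and adjusted p from 0.375 to 0.962. Zbtb1 (chromosome 12, 76370266 to 76396950, plus strand), needed for lymphocyte development, stood at 63.7, 62.1 and 58.1 CPM in CD301b replicates, at 56.8, 55.8 and 58.4 in those of SIRPa and at 56.5, 67.3 and 60.3 in those of XCR1 (adjusted p from 0.666 to 0.997). For both genes the libraries of all 3 populations overlapped. For Zbtb1 the 3 intervals lay between -0.39 and 0.39 on the log2 scale.

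Zbtb33 (chromosome X, 38189793 to 38197046, plus strand), which encodes Kaiso, a reader of methylated CpG sites, stood at 48.6, 34.8 and 52.8 CPM in CD301b replicates, 46.0, 45.0 and 41.7 in those of SIRPa and 32.4, 38.1 and 47.6 in those of XCR1 (adjusted p from 0.50 to 0.976). Zbtb22 (chromosome 17, 33915904 to 33919325, plus strand), which lies beside Tapbp in the MHC region and shares 149 of its 2673 exonic bases with it on the same strand, stood at 26, 24.7 and 17.1 CPM in CD301b replicates, at 21.4, 23.9 and 27.7 in those of SIRPa and at 26.1, 20.4 and 22.1 in those of XCR1 (adjusted p from 0.850 to 0.970). For both genes the libraries of every pair of populations overlapped. Of Zbtb33's 5122 exonic bases, 474 lie opposite Tmem255a.

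Zbtb17 (chromosome 4, 141444654 to 141467930, plus strand), which encodes MIZ1, a partner of MYC, stood at 22.1, 27.5 and 27.9 CPM in CD301b replicates, 21.5, 21.6 and 17.5 in those of SIRPa and 20.6, 8.69 and 22.9 in those of XCR1. CD301b lay above SIRPa in every library without passing (0.36 ± 0.28, adjusted p = 0.680, edgeR). CD301b minus XCR1 was larger, at 0.57 ± 0.28 (interval -0.01 to 1.16), with overlap and without passing (0.164). The spread in XCR1 came from replicate 2, the lowest library of all, and without it SIRPa minus XCR1 turned from 0.22 ± 0.28 to -0.11.

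Zbtb24 (chromosome 10, 41450383 to 41465574, plus strand), a gene mutated in a human immunodeficiency with unstable centromeres, stood at 25.5, 24.1 and 21.5 CPM in CD301b replicates, 17.7, 17.0 and 21.4 in those of SIRPa and 14.3, 19.2 and 12.5 in those of XCR1. CD301b was above both others in every library, and its difference from XCR1, 0.63 ± 0.23, lay just outside the threshold (adjusted p = 0.0583). It passed with limma-voom (0.0459) and without XCR1 replicate 2 (0.0286). CD301b minus SIRPa did not pass (0.60), nor did SIRPa minus XCR1 (0.449).

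Zbtb25 (chromosome 12, 76347782 to 76369602, minus strand), whose start lies next to that of Zbtb1 on the other strand, stood at 7.98, 8.74 and 19.7 CPM in XCR1 replicates 1 to 3, 3.83, 6.55 and 6.93 in SIRPa and 6.01, 6.92 and 7.34 in CD301b replicates. The groups of XCR1 and the others did not overlap, and XCR1 replicate 3, the XCR1 library with the most thymocyte RNA by the markers above, was far above the rest. Among those markers, Rag1 stood at 8.18, 4.99 and 115 CPM and Dntt at 4.84, 2.23 and 75.7 CPM in XCR1 replicates 1 to 3. SIRPa replicate 3 and CD301b replicate 4 had thymocyte sums (892 and 792 CPM) near that of XCR1 replicate 3 (801). Zbtb25 stood at 6.93 and 7.34 CPM in them, Rag1 at 62.7 and 37.8 and Dntt at 16.2 and 6.65. The part of thymocyte RNA in the Zbtb25 level was not tested. SIRPa minus XCR1 was -1.07 ± 0.40 (adjusted p = 0.0557), passing without XCR1 replicate 1 (0.0330), XCR1 replicate 2 (0.0409) or CD301b replicate 4 (0.0492) and with no filter on low counts (0.0426). CD301b minus XCR1 was -0.85 ± 0.40 (0.145), and neighbouring Zbtb1 showed no such rise in XCR1 replicate 3.

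The other 20 tested members, from 3.99 CPM (Zbtb3) to 45.2 CPM (Zbtb44) over the 9 libraries, passed in no comparison. Their log2 fold changes ran from -0.94 to 0.30 for CD301b minus SIRPa, from -0.75 to 0.71 for CD301b minus XCR1 and from -0.34 to 0.82 for SIRPa minus XCR1, with adjusted p of at least 0.359, 0.0729 and 0.0752. Over all 36, the 95% interval lay within 2-fold in either direction for 25 members between CD301b and SIRPa, and for 24 in each comparison with XCR1. For 10, 10 and 7 uncalled members in these comparisons the interval reached 2-fold, so a difference of that size is not excluded for them.

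**Figure D4:**
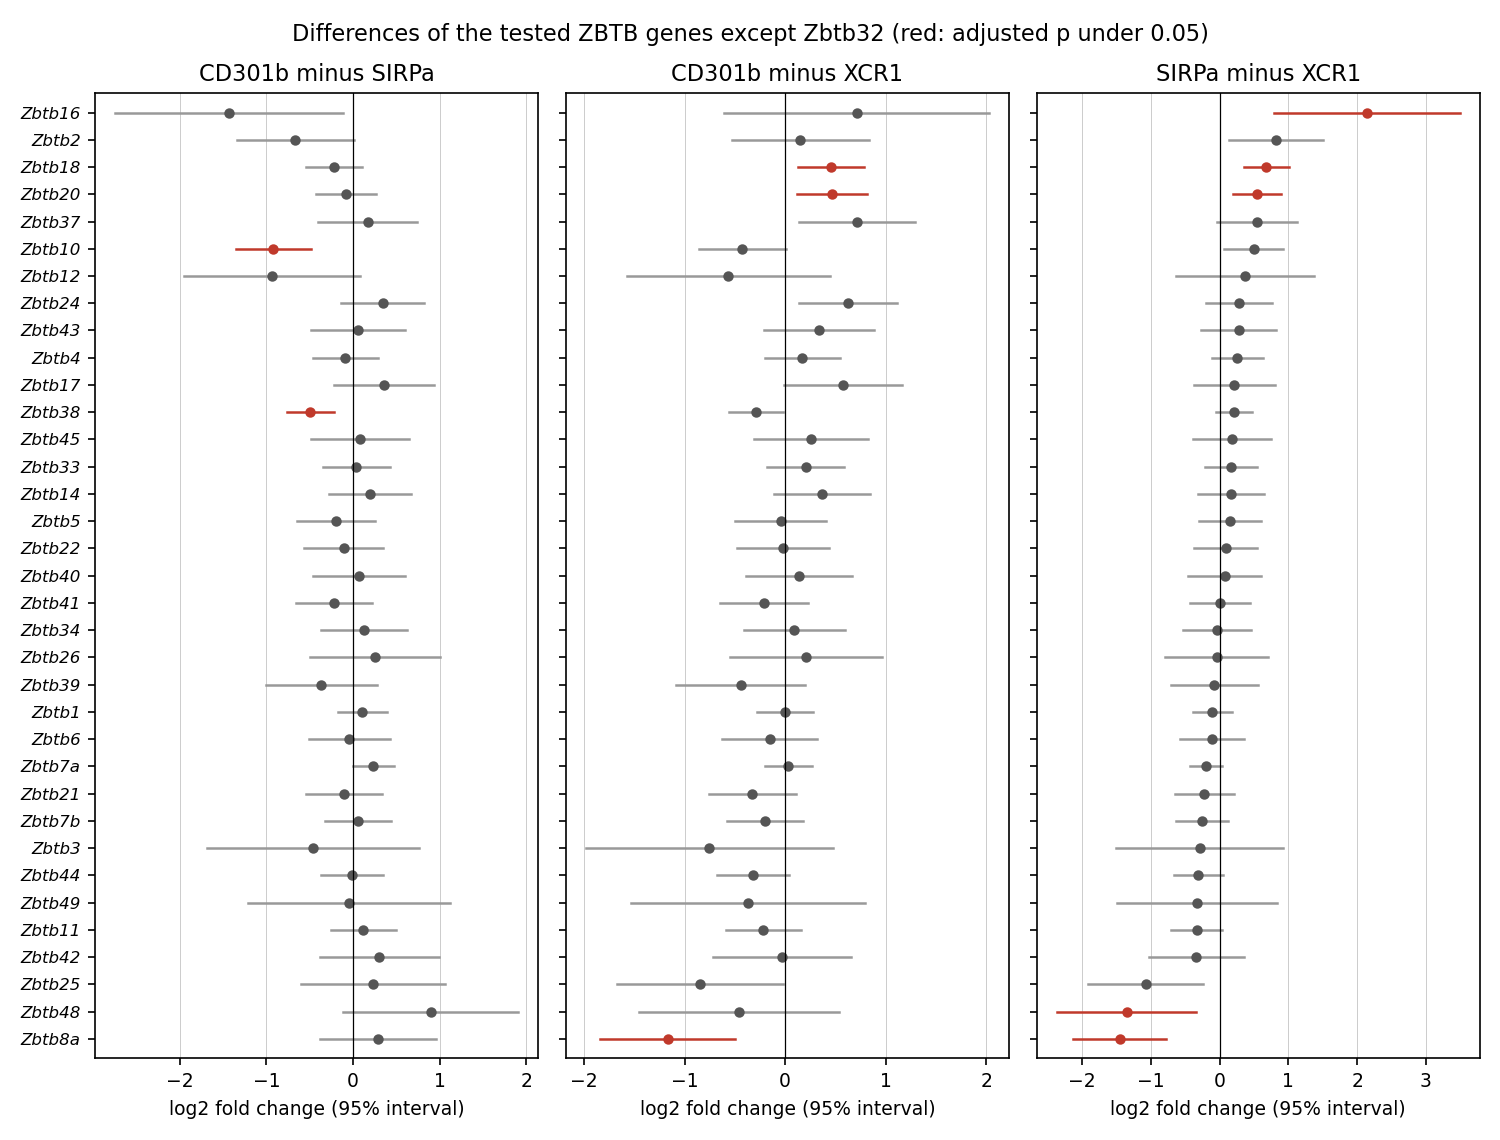
Points give the log2 fold change and lines its 95% interval for 35 tested ZBTB genes in the 3 comparisons (log2 axes), ordered by SIRPa minus XCR1, in red where the adjusted p was under 0.05. Zbtb32 is left out because its XCR1 libraries were all at 0, and most intervals cross 0 with the longest lines at genes of low counts such as Zbtb16, Zbtb3 and Zbtb49.

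BTB zinc finger genes that carry other names were read beside the family, from a list of 8 of which 6 were tested. Bcl6, the repressor of germinal centre B cells and follicular helper T cells, was the 1 gene called. Over all genes, 9.12% were lower in CD301b than in XCR1 and 10.7% were lower in SIRPa than in XCR1. It stood at 57.7, 58.2 and 58.1 CPM in CD301b replicates, 50.8, 46.6 and 54.0 in those of SIRPa and 132, 120.5 and 121 in those of XCR1, with XCR1 above all others. Its log2 fold change was -1.10 ± 0.12 for CD301b minus XCR1 (adjusted p = 7.32e-07, edgeR) and -1.30 ± 0.13 for SIRPa minus XCR1 (7.53e-08). Between CD301b and SIRPa 0 of the 6 passed, 0 by unadjusted p under 0.05 in edgeR, and 0 with DESeq2 or limma-voom. Over all genes 4.28% passed there in edgeR. Zfp131, the uncalled gene of the list with the highest level, stood at 36.5, 34.2 and 34.9 CPM on average in CD301b, SIRPa and XCR1.

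Of 20 genes for the corepressors that BTB domains recruit, their complexes and the ubiquitin ligase scaffold CUL3, 2 were lower in CD301b than in XCR1, 1 was higher and 17 did not pass. Between SIRPa and XCR1, 2 were lower and 18 did not pass. These shares are near or below those of all genes, of which 9.12% were lower and 13.5% higher in CD301b than in XCR1, and 10.7% lower and 13.9% higher in SIRPa. The lower genes were the deacetylase Hdac1, at 98.8 ± 19.8, 92.3 ± 5.48 and 163 ± 7.98 CPM in CD301b, SIRPa and XCR1, and Rbbp7, a histone-binding subunit of deacetylase complexes, at 147 ± 9.48, 152 ± 20.2 and 299.5 ± 6.49 CPM. Adjusted p for Hdac1 was 0.000307 against CD301b and 7.10e-05 against SIRPa, and for Rbbp7 4.25e-07 and 7.52e-07 (edgeR). Bcor, the corepressor bound by BCL6, was higher in CD301b than in XCR1 (133 ± 3.47 and 107 ± 7.29 CPM, 0.0438). Between CD301b and SIRPa 0 of the 20 passed in edgeR, DESeq2 or limma-voom, with 3 higher and 0 lower by unadjusted p under 0.05 in edgeR. Of all genes, 4.28% passed in edgeR in that comparison. Chd4, the uncalled gene with the highest level and a helicase of the NuRD deacetylase complex, averaged 653, 566 and 672 CPM in CD301b, SIRPa and XCR1. Median log2 fold changes of the list were 0.12, -0.02 and -0.15 for CD301b minus SIRPa, CD301b minus XCR1 and SIRPa minus XCR1.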

How the data were processed

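The submitters' processing notes list HISAT2, featureCounts of Subread, Trimmomatic, SAMtools, FastQC and edgeR, and build mm10. Their versions, the annotation and the strand setting were not found in the sources used here. The deposited table holds raw read counts per gene symbol. Rows whose 24 symbols had turned into dates (0.125 to 0.187% of counts) were left out. A second table of log2 CPM values deposited by the authors held 38 of the 39 members and was used for comparison alone: for members with at least 100 counts it differed from log2 CPM recomputed here by a median of 0.07 to 0.19 per library.

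Genes were kept with filterByExpr (minimum count 10), which left 15417, scaled by TMM and tested in 1 fit over all 9 libraries with edgeR 4.0.16 in R 4.3.3 (glmQLFit, robust, glmQLFTest, two-sided, no covariate), adjusted by Benjamini-Hochberg with a threshold of 0.05. The fit was tested on simulated data. A floor of 3 counts was used for a count of 0 and covers counting error only. Alternatives were RLE size factors, DESeq2 1.42.0, limma-voom (limma 3.58.1), no filter, a fit on 6 libraries, a replicate block, and leaving out each library.

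Coordinates, exonic lengths and overlaps come from GENCODE vM21 (GRCm38, the assembly of mm10), and promoter sequences from RefSeq (GRCm38.p6), where 34 of 39 members had an entry. The members, lists and the naming rule were chosen with earlier results of these data known. The rule describes each member past the threshold, the 5 with the highest length-scaled level and 10 with known roles in blood cells, and of each list up to 3 called genes and the uncalled gene with the highest CPM. Members named outside it were chosen after their values were seen.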

Additional observations from a re-analysis of the deposited data

How the results depend on the processing

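The count of ZBTB genes called between CD301b and SIRPa was 2 and stayed so with RLE size factors, DESeq2, limma-voom, no filter and the fit on only 6 libraries. With 1 library left out it ranged from 0 to 2, between CD301b and XCR1 (4 called) from 2 to 4, and between SIRPa and XCR1 (6 called) from 3 to 7. The first count was 0 without CD301b replicate 3 and 1 without any other single CD301b or SIRPa library. The second was 2 without any single library except CD301b replicate 3 and XCR1 replicate 2, and the third was 3 without SIRPa replicate 1 or 2. Fits with fewer libraries also have fewer degrees of freedom. The fit on only the 6 libraries compared gave 2 between CD301b and XCR1. Over all genes, the 660 called between CD301b and SIRPa became 328, 418 and 438 when SIRPa replicate 1, SIRPa replicate 3 or CD301b replicate 3 was left out. Of the 16 named members, the directions that turned belonged to values that did not pass. Outside the fits that left out 1 library and the replicate block, this was Zbtb1 between CD301b and XCR1, at 0.0030 with limma-voom.

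Replicate numbers are shared in the titles, but same-numbered libraries deviated together only weakly (correlations of -0.0032 to 0.073 over 7 pairs, against -0.098 to 0.089 over 20 pairs of different numbers), so they were not taken as pairs. With the replicate block, 1 ZBTB gene was called between CD301b and SIRPa, 2 between CD301b and XCR1 and 7 between SIRPa and XCR1. Calls lost under it were Zbtb38 between CD301b and SIRPa (adjusted p = 0.0876, edgeR), Zbtb20 (0.241) and Zbtb8a (0.0773) between CD301b and XCR1, and Zbtb48 between SIRPa and XCR1 (0.0743). CD301b minus SIRPa turned to 0.011 for Zbtb22 and -0.091 for Zbtb33, and CD301b minus XCR1 to 0.065 for Zbtb1 and 0.10 for Zbtb22. With 1 library left out, CD301b minus SIRPa ranged from -0.087 to 0.20 for Zbtb33, from -0.012 to 0.60 for Zbtb8a, from -0.15 to 0.012 for Zbtb20, from -0.094 to 0.21 for Zbtb7b and from -0.23 to 0.055 for Zbtb22. CD301b minus XCR1 ranged from -0.047 to 0.10 for Zbtb7a, from -0.058 to 0.069 for Zbtb1 and from -0.15 to 0.13 for Zbtb22, and SIRPa minus XCR1 from -0.027 to 0.19 for Zbtb22 and from -0.11 to 0.47 for Zbtb17.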
